A study of Mus musculus with 180 samples.

Results

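The comparison described here asks how sleep deprivation (SD) changed the loading of each transcript onto ribosomes that carry phosphorylated ribosomal protein S6 (pS6), set against the total RNA of the same mouse. Its members are all cytosolic (supernatant) libraries of the pS6 capture and of the uncaptured Input, which are 60 of the 180 libraries of the series and pair off by the mouse number in their titles, 1 pS6 and 1 Input library for each of 30 mice. For every gene the log2 difference between pS6 and Input was taken within each mouse, and the mean of that difference over 16 freely sleeping (Sleep) mice was subtracted from its mean over 14 SD mice, with equal weight to mice trained by contextual fear conditioning (CFC) and to mice without it (NoCFC). The SD mice were 7 CFC SD and 7 NoCFC SD animals, and the Sleep mice were 8 CFC Sleep and 8 NoCFC Sleep animals. All of them, controls included, were males of a cross between a B6.Cg line that carries the Cre transgene Tg(Camk2a-cre)T29-1Stl and the RiboTag line B6N.129-Rpl22tm1.1Psam/J, in which cells that make Cre from the Camk2a promoter carry an HA tag on the ribosomal protein Rpl22. The labels give neither the age of the mice nor the length of the deprivation. The tag was not used in these libraries: the pS6 antibody was added to the whole fraction, so any cell with phosphorylated S6 could contribute, and Input held the RNA of all cells of the tissue although the labels name the cell type as neuron. In such bulk libraries, fewer cells of a type and less RNA per cell cannot be told apart.

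Ribosomal protein S6 sits in the small ribosomal subunit and is phosphorylated on its tail by the S6 kinases, downstream of mTORC1, and by the RSK kinases, downstream of the MAPK cascade. Because both routes are engaged when a neuron fires strongly, capturing ribosomes with an antibody against pS6 enriches the transcripts of recently active neurons, among them the immediate-early genes that these cells have just switched on. A transcript's ratio of pS6 to Input therefore depends on which cells hold it and on how much of it sits on pS6-bearing ribosomes in those cells. Sleep deprivation keeps animals awake and is known to raise immediate-early gene expression in forebrain neurons.

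Total counts were 17.5 to 25.4 M per pS6 library and 13.4 to 25.4 M per Input library. The loading of a gene in a mouse is given below as the ratio of its CPM (counts per M counts of the library) in the pS6 library to its CPM in the Input library, and log2 differences, their standard errors (SE) and adjusted p-values are from edgeR's quasi-likelihood test with a term for each mouse. The summed CPM of 19 excitatory-neuron genes was 22300 to 27500 in SD and 23300 to 28900 in Sleep pS6 libraries, against 18700 to 22500 in SD and 16700 to 24100 in Sleep Input libraries. That of 23 astrocyte genes was 1220 to 4480 in SD and 1090 to 3170 in Sleep pS6 libraries, against 3080 to 3990 in SD and 2700 to 4250 in Sleep Input libraries. Marker genes that failed the filter on low counts were left out of such sums, which held 13 of 14 CA1, 22 of 23 vascular and 6 of 8 blood genes. The pS6 libraries of mice 19, 12 and 27 stood apart with 4480, 3170 and 2540, and 7 others stood apart in 10 choroid plexus genes. The summed CPM of these was 2860, 1170, 1140 and 841 in SD mice 22, 29, 18 and 7, and 1420, 952 and 612 in Sleep mice 2, 14 and 23, against medians of 39.8 over all SD and 39.2 over all Sleep mice. The mouse numbers fall into 3 runs, of NoCFC mice (numbers 1–11), of CFC mice (12–22) and of both (23–30). The labels name no batch, and these runs are treated as possible ones.

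Sleep loss raised the pS6 loading of activity-regulated transcripts and of interneuron transcripts, and lowered that of a smaller set that included genes of CA1 pyramidal neurons. Of 17112 genes tested, 246 (1.44%) were more loaded in SD mice and 142 (0.83%) were less loaded, 388 in all (2.27%), at an adjusted p under 0.05, and 12.5% had an unadjusted p under 0.05. Changes were moderate: the median log2 difference was 0.30 among genes called higher and -0.24 among genes called lower, against -0.0011 over all genes tested, and 54 of the 246 exceeded 0.5. The higher calls came mainly from the captured RNA: SD changed these genes by a median of 0.31 on the log2 scale in the pS6 libraries and -0.0087 in Input, and in 232 of 246 the change was larger in size in pS6. Among the 142 lower calls, the medians were -0.17 in pS6 and 0.052 in Input, and 100 changed more in pS6 and 42 in Input. Of all 15551 genes with both values, 9479 changed more in pS6 and 6072 in Input, and the calls were picked on the difference between the 2 changes. Without the term that pairs the libraries of a mouse, 87 genes were called higher and 28 lower. Without the 7 mice high in choroid plexus genes, an alternative chosen after seeing the data, 142 were called higher and 65 lower.

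**Figure D1:**
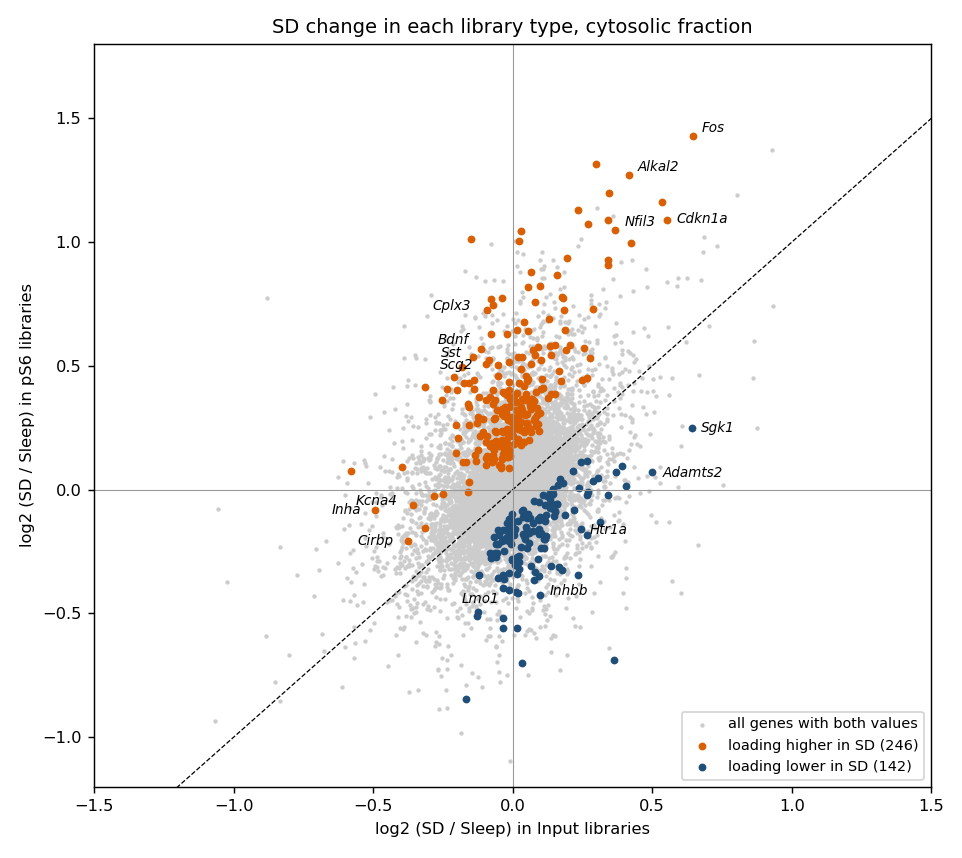
Log2 change of each gene with SD in Input libraries (x axis) and in pS6 libraries (y axis), from separate fits; 1 point is 1 gene, grey for all genes with both values, orange for the 246 genes more loaded in SD mice and blue for the 142 less loaded. The dashed line marks equal change in both kinds of library: most orange points lie high above it near 0 on the x axis, whereas Sgk1 and Adamts2 lie below it through a change in Input.

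Many transcription factors that neurons switch on within minutes of activity were more loaded after sleep loss. Of 29 such genes, all tested, 16 rose in loading, 1 fell and 12 did not pass the threshold, with a list median of 0.39. The median change with SD was 0.43 in the pS6 libraries and 0.069 in Input. Fos, the founding member of the AP-1 family and the usual marker of recently active neurons (chr12:85473890-85477273, GRCm38, plus strand), had ratios of 2.24, 3.58 and 4.65 (lowest, median, highest) in SD mice, against 1.61, 1.98 and 2.56 in Sleep mice. The ranges overlapped at their edges, but every SD mouse lay above the Sleep median. Its loading was 1.72-fold higher (log2 difference 0.78 ± 0.09 SE, adjusted p = 1.14e-07). SD raised Fos CPM in both libraries, to 45.1 ± 10.4 in SD against 16.8 ± 4.06 in Sleep pS6 libraries, and to 12.9 ± 2.7 in SD against 8.25 ± 1.65 in Sleep Input libraries (± standard deviation, n = 14 and 16), and the loading difference is the part of the pS6 change beyond the Input change.

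Nr4a1, an orphan nuclear receptor induced by activity, had ratios of 1.41, 2.11 and 2.56 in SD mice, against 1.08, 1.36 and 1.61 in Sleep mice (0.57 ± 0.06, adjusted p = 1.14e-07). All 14 SD mice lay above the Sleep median. Its relatives Nr4a2 (0.53 ± 0.06) and Nr4a3 (0.38 ± 0.06) also rose. Junb, an AP-1 subunit, had ratios of 2.13, 3.0 and 3.39 in SD mice, against 1.62, 2.05 and 2.28 in Sleep mice (0.51 ± 0.06, adjusted p = 5.98e-08); exons of Junb overlap Prdx2, and because no source names a strand setting its counts are uncertain. Egr1, a zinc-finger factor required for lasting synaptic change, rose by 0.45 ± 0.06, and its relatives Egr4 and Egr2 rose by 0.39 ± 0.06 and 0.76 ± 0.19, while Egr3, at 0.00 ± 0.05, did not pass. Npas4, a factor that organises inhibition onto active neurons, had the largest log2 difference of the list, 1.16 ± 0.20, with ratios of 1.59, 4.55 and 12.3 in SD mice, against 0.993, 1.86 and 5.90 in Sleep mice. Its mean level was only 2.87 and 3.14 CPM in SD and Sleep Input libraries, and its ratios spread more widely than those of the genes above. Klf10, a zinc-finger repressor, was the member that fell (-0.36 ± 0.05, adjusted p = 1.75e-05), and Jun (-0.05 ± 0.04) and Bhlhe40 (-0.13 ± 0.04) did not pass the threshold.

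Nfil3, a leucine-zipper repressor that also belongs to the clock output genes, was 1 of only 5 genes in which every SD mouse was more loaded than every Sleep mouse (0.0292% of genes tested). Its ratios were 1.63, 1.94 and 2.31 in SD mice, against 0.891, 1.23 and 1.57 in Sleep mice (0.68 ± 0.07, adjusted p = 3.98e-08). The other 4 were Scg2, Dusp1, Cartpt and Zdbf2. Zdbf2, an imprinted gene named here because it belongs to this count and not by the naming rule, had a log2 difference of 0.54. No gene had all SD mice below all Sleep mice.

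**Figure D2:**
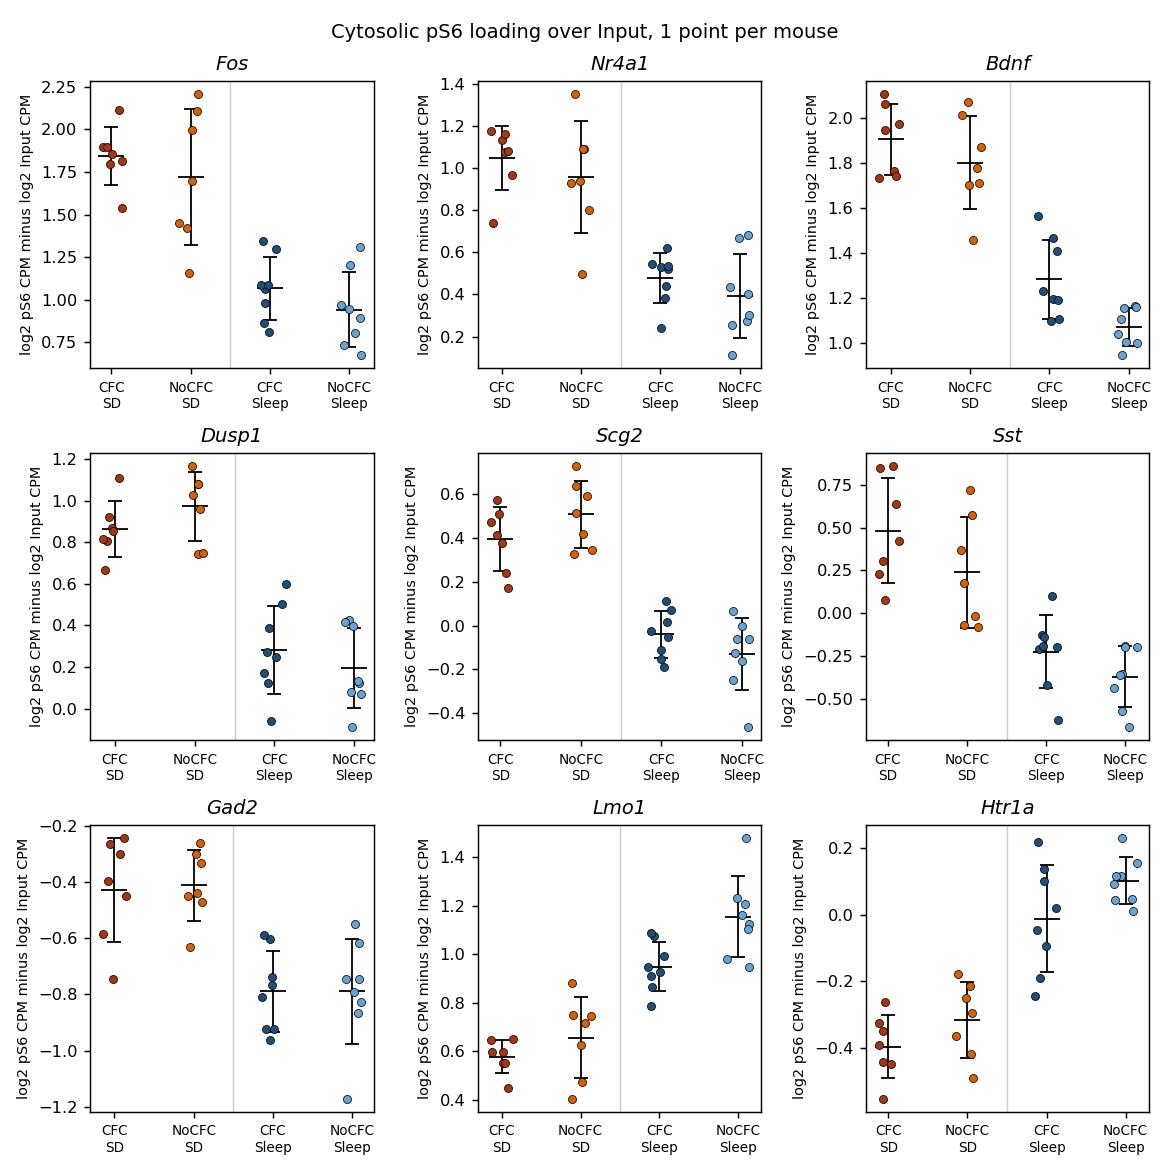
Loading of 9 genes in each mouse, as log2 pS6 CPM minus log2 Input CPM with a prior count of 2 (y axes), in the 4 groups (x axes); a point is 1 mouse, and bars give the mean ± standard deviation of a group. SD mice lie above Sleep mice in the panels of Fos to Gad2, without overlap for Dusp1 and Scg2, and below them for Lmo1 and Htr1a.

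Among 33 activity-regulated effectors tested, which are the proteins through which active neurons alter synapses and signalling, 19 rose in loading and none fell, with a median of 0.31. Bdnf, the neurotrophin released by active excitatory neurons (chr2:109674700-109727007, GRCm38, plus strand), had the smallest p of all genes tested. Its ratios were 2.75, 3.55 and 4.31 in SD mice, against 1.93, 2.24 and 2.96 in Sleep mice (0.68 ± 0.05, adjusted p = 7.05e-11, 1.6-fold). Every SD mouse lay above the Sleep median and the ranges met only between 2.75 and 2.96. Bdnf averaged 164 ± 18.9 CPM in SD and 111 ± 13.5 CPM in Sleep pS6 libraries, but 45.1 ± 2.34 CPM in SD and 48.9 ± 4.25 CPM in Sleep Input libraries, so its Input level was not higher in SD mice. Exons of Bdnf overlap the predicted gene Gm45346. The gene of its receptor TrkB, Ntrk2, rose by 0.28 ± 0.04.

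The secreted synaptic organiser Nptx2, a pentraxin that clusters AMPA receptors, had ratios of 2.40, 3.25 and 4.11 in SD mice, against 1.57, 2.04 and 2.49 in Sleep mice (0.63 ± 0.07, adjusted p = 1.16e-07). Inhba, which encodes the activin A subunit, had ratios of 3.69, 5.77 and 7.4 in SD mice, against 2.24, 3.35 and 4.25 in Sleep mice (0.74 ± 0.09, adjusted p = 1.35e-07). The related activin B subunit gene Inhbb went the other way and had the largest fall among the named genes, with ratios of 0.961, 1.24 and 1.6 in SD mice, against 1.35, 1.81 and 2.46 in Sleep mice (-0.53 ± 0.09, adjusted p = 0.000115). Inha, the shared inhibin alpha subunit gene, was called higher (0.40 ± 0.09) through its Input level, where SD changed it by -0.49 ± 0.09, with -0.08 ± 0.05 in pS6. The 3 genes of this ligand family thus gave calls of different direction and source.

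Ptgs2, the inducible cyclo-oxygenase COX-2, had ratios of 1.28, 1.85 and 2.36 in SD mice, against 0.966, 1.17 and 1.90 in Sleep mice (0.63 ± 0.09, adjusted p = 4.81e-06). The kinase gene Sik1 rose by 0.55 ± 0.09, the polo-like kinase gene Plk3 by 0.57 ± 0.08, and Rgs4, a brake on G-protein signalling, by 0.45 ± 0.04. The postsynaptic scaffold gene Homer1 rose by 0.22 ± 0.04. Arc, the dendritic mRNA that controls AMPA receptor removal, was not among the calls (0.19 ± 0.06), with ratios of 1.33, 1.77 and 2.18 in SD mice against 1.21, 1.57 and 1.86 in Sleep mice. Plk2 (0.03 ± 0.04) and Syt4 (0.04 ± 0.05) were also not called. Alkal2, which encodes a ligand of the receptor kinases ALK and LTK, had, with Cplx3, the largest log2 difference among the 12 genes named as higher (0.84 ± 0.12, adjusted p = 2.02e-05), with ratios of 5.08, 8.60 and 12.5 in SD mice against 3.31, 4.34 and 7.58 in Sleep mice; its exons overlap Acp1.

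MAPK feedback inhibitors, the phosphatases and adaptors that ERK signalling induces to damp itself, rose in 6 of 15 cases and fell in none (median 0.12). Dusp1, the nuclear phosphatase MKP-1, had ratios of 1.59, 1.86 and 2.25 in SD mice, against 0.941, 1.16 and 1.52 in Sleep mice (0.68 ± 0.06, adjusted p = 1.79e-09); its exons overlap Ergic1. The groups did not overlap. Spry4, a Sprouty adaptor, had ratios of 0.763, 0.890 and 1.15 in SD mice, against 0.423, 0.619 and 0.828 in Sleep mice (0.57 ± 0.08), and Spry2 rose by 0.54 ± 0.07. Dusp4, Dusp10 and Dusp14 rose by 0.32 ± 0.06, 0.41 ± 0.09 and 0.20 ± 0.04. The ERK-specific phosphatase genes Dusp6 (-0.08 ± 0.04) and Dusp7 (-0.09 ± 0.04) were not called.

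Promoter windows are printed for 6 genes that rose in loading, because they share a short motif. A window runs from 250 bases before to 50 bases after a start in RefSeq (GRCm38.p6), and the letters were searched on both strands. TGACGTCA, the cAMP response element bound by CREB-family factors, was found in the windows of Scg2 (chr1:79439977-79440276, minus strand), Sst (chr16:23890795-23891094, minus), Pcsk1 (chr13:75089607-75089906, plus) and Dusp1 (chr17:26508423-26508722, minus), beginning 68, 48, 78 and 143 bases before the start. The shorter TGACGT, which TGACGTCA contains, was found in the windows of Fos (chr12:85473640-85473939, plus) and of 1 of the Bdnf starts (chr2:109692186-109692485, plus), beginning 66 and 36 bases before the start. Capitals mark the motif in each; in Bdnf it lies on the other strand.
Scg2: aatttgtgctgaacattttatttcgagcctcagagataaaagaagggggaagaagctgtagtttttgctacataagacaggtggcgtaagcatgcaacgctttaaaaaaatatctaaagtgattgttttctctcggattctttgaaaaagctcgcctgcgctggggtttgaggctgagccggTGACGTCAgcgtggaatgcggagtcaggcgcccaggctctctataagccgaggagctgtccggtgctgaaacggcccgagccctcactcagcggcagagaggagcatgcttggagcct
Sst: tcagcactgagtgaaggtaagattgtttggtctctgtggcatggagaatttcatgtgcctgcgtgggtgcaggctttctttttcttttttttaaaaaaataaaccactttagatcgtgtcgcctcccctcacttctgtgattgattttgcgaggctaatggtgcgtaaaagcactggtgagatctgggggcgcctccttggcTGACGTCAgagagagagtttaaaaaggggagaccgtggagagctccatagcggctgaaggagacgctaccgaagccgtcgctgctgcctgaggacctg
Pcsk1: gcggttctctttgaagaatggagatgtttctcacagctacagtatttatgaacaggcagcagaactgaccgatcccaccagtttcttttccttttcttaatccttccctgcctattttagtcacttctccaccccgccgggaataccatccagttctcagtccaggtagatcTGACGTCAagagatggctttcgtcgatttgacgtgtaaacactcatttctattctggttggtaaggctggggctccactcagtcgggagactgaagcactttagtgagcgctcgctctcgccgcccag
Dusp1: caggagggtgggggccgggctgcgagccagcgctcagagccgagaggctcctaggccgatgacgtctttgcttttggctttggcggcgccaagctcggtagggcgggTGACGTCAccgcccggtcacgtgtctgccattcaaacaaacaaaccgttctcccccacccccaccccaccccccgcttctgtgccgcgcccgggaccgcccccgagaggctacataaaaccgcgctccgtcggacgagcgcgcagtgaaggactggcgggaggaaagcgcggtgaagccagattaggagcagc
Fos: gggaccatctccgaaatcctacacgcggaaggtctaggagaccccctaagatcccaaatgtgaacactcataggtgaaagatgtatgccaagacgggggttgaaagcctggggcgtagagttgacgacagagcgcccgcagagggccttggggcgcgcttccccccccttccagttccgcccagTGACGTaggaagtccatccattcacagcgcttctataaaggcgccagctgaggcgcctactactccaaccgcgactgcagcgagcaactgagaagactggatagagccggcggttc
Bdnf: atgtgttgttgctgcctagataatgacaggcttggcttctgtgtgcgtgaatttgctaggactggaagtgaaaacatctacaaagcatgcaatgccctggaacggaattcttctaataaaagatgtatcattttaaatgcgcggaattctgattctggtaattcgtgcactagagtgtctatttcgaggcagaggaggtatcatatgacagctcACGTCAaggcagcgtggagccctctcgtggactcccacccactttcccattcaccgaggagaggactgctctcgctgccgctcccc
TGACGTCA was in 16 of 268 windows (5.97%) of genes called higher and in 1 of 141 windows (0.709%) of genes called lower, against 2.84% of the windows of genes tested and 1.79% of all 32851 windows. TGACGT was in 16%, 4.26%, 10.5% and 7.51% of the same sets. TGANTCA, the AP-1 motif, was in 7.09%, 3.55%, 5.22% and 7.81%. Windows were at hand for 195 of the 246 genes called higher and 97 of the 142 called lower, and these shares describe letters in the windows, with no test.

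Neuropeptide genes and the genes that package peptides for release rose in 12 of 27 cases and fell in none, with a median of 0.31. Scg2, a granin of dense-core vesicles (chr1:79434669-79440120, minus strand), had ratios of 1.13, 1.36 and 1.66 in SD mice, against 0.725, 0.959 and 1.08 in Sleep mice, and the groups did not overlap (0.54 ± 0.05, adjusted p = 1.61e-09). Pcsk1, counted among the effectors above, is the convertase that cuts prohormones in the same vesicles, and had ratios of 1.51, 2.01 and 2.57 in SD mice, against 0.719, 1.21 and 1.57 in Sleep mice (0.80 ± 0.09, adjusted p = 5.44e-08). The Sleep median of Scg2 lay near 1, where capture and Input are equal, and that of Pcsk1 lay above it. Both SD medians were higher. The other convertase gene of neurons, Pcsk2 (-0.06 ± 0.04), the granin genes Chga (0.06 ± 0.04) and Chgb (0.09 ± 0.04) and the peptide gene Cck (-0.12 ± 0.05) were not called.

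Sst, the peptide of somatostatin interneurons (chr16:23889573-23890958, minus strand), had ratios of 0.946, 1.26 and 1.82 in SD mice, against 0.630, 0.867 and 1.07 in Sleep mice (0.66 ± 0.09, adjusted p = 3.60e-05). Its levels were 239 ± 52.7 CPM in SD and 166 ± 30.0 CPM in Sleep pS6 libraries, against 185 ± 29.4 CPM in SD and 204 ± 35.1 CPM in Sleep Input libraries. Npy, the peptide of an overlapping interneuron population, had ratios of 1.20, 1.49 and 2.13 in SD mice, against 0.780, 1.00 and 1.43 in Sleep mice (0.60 ± 0.08, adjusted p = 1.99e-05). All 14 SD mice lay above the Sleep median for both. Cort, a relative of somatostatin, rose by 0.57 ± 0.13, Crhbp, which binds corticotropin-releasing hormone, by 0.45 ± 0.06, and the opioid precursor genes Penk and Pdyn by 0.34 ± 0.09 and 0.32 ± 0.09.

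The largest peptide differences were in genes of low level. Crh, the stress peptide made in the hippocampus by interneurons, had ratios of 2.99, 4.54 and 5.25 in SD mice, against 0.932, 2.0 and 4.5 in Sleep mice (1.00 ± 0.17, adjusted p = 0.000206), at 1.58 CPM in SD and 1.53 CPM in Sleep Input libraries. Cartpt, the CART peptide precursor, had ratios of 2.25, 3.66 and 4.51 in SD mice, against 1.31, 1.81 and 2.14 in Sleep mice, with no overlap (0.98 ± 0.11, adjusted p = 1.35e-07), at 2.80 CPM in SD and 2.76 CPM in Sleep Input libraries. Vip (0.40 ± 0.11) and Vgf (0.31 ± 0.09) were not called.

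Transcripts of inhibitory neurons rose along with Sst, Npy and Cort. Of 29 inhibitory-neuron genes, 11 rose and none fell (median 0.26, with 0.27 in pS6 and -0.010 in Input). The highest log2 difference of this list, 0.66, equals that of Sst, so the list and the peptide genes may share members. Gad2, an enzyme of GABA synthesis, had ratios of 0.596, 0.748 and 0.845 in SD mice, against 0.444, 0.582 and 0.683 in Sleep mice (0.37 ± 0.06, adjusted p = 2.27e-05). It was thus depleted in the capture in every mouse, and less so after sleep loss. Lhx6, a transcription factor of interneurons from the medial ganglionic eminence, had ratios of 1.24, 1.54 and 1.77 in SD mice, against 0.997, 1.21 and 1.40 in Sleep mice (0.35 ± 0.05). Gad1 (0.25 ± 0.05), the fate factor gene Dlx1 (0.29 ± 0.05) and Nxph1 (0.34 ± 0.05) rose too. Pvalb (0.18 ± 0.06), which marks fast-spiking cells, Calb2 (0.07 ± 0.06), Lamp5 (-0.12 ± 0.05) and Reln (0.16 ± 0.17) were not called. Outside the list, Cplx3, a complexin of transmitter release, had ratios of 0.441, 0.638 and 0.856 in SD mice, against 0.259, 0.344 and 0.501 in Sleep mice (0.84 ± 0.10, adjusted p = 3.84e-07), and Sowahb rose by 0.69 ± 0.13.

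The summed level of the 29 inhibitory-neuron genes moved with these groups. It was 1690 to 2130 CPM (median 1800) in SD and 1440 to 1690 CPM (median 1530) in Sleep pS6 libraries, and 13 of 14 SD mice lay above the highest Sleep mouse. In Input it was 1490 to 1730 CPM in SD and 1530 to 1720 CPM in Sleep mice, with a median of 1600 in each. The sum may include peptide genes such as Sst, and its part in the rise of the peptide genes and of the activity-regulated genes was not tested.

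**Figure D3:**
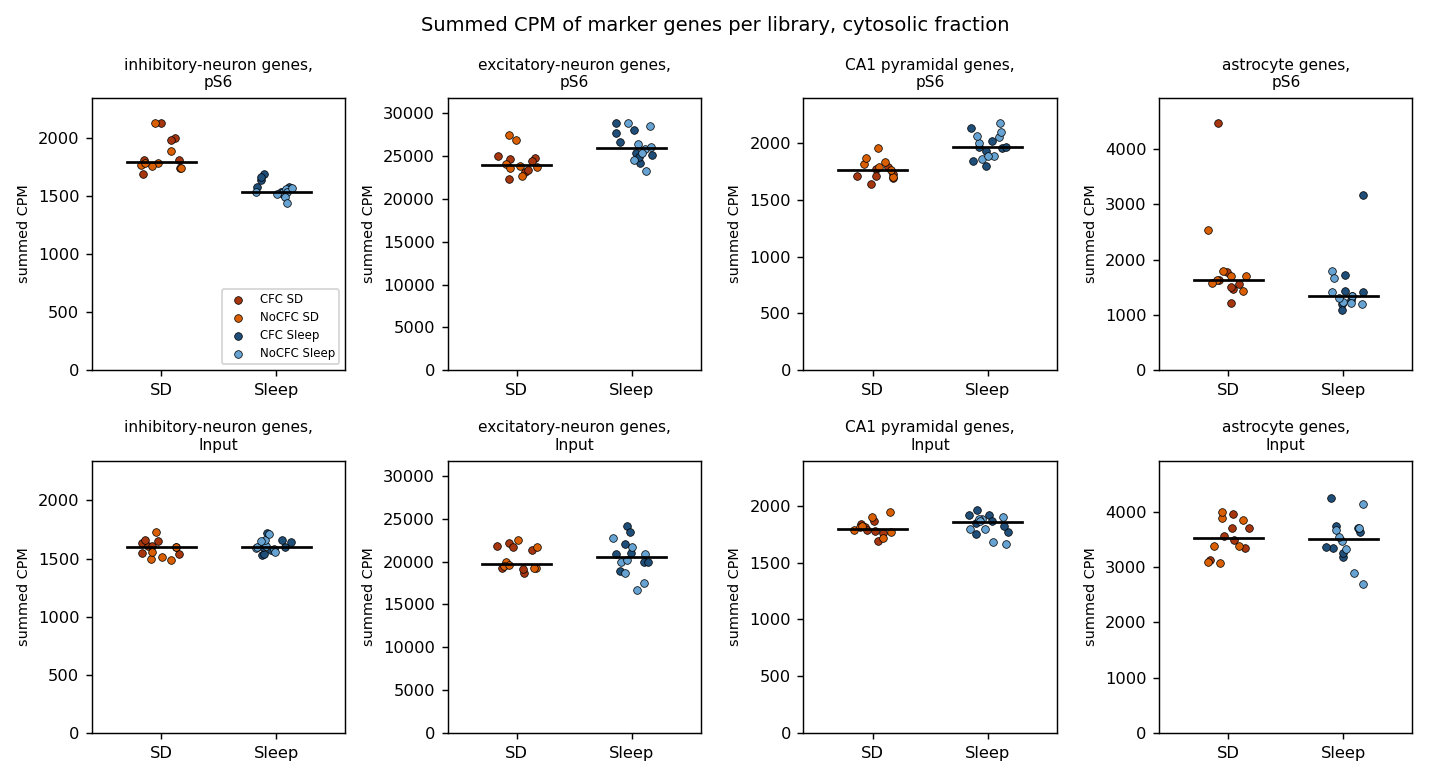
Summed CPM of marker genes per library (y axes, from 0) in SD and Sleep mice (x axes), pS6 libraries above and Input libraries below; a point is 1 mouse, coloured by group, and a bar is the median. Inhibitory-neuron genes are higher and CA1 pyramidal genes lower in the SD pS6 libraries, whereas the Input libraries overlap, and the points far above the rest in astrocyte genes are mice 19, 12 and 27.

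Calls among genes of excitatory neurons went the other way. Of 19 excitatory-neuron genes, 3 fell and none rose (median -0.10), and of 13 CA1 pyramidal genes tested, 6 fell and none rose (median -0.16). Fibcd1, a CA1 marker, had ratios of 0.916, 1.08 and 1.23 in SD mice, against 1.08, 1.32 and 1.84 in Sleep mice (-0.32 ± 0.05, adjusted p = 2.97e-05). Wfs1, an ER membrane protein gene that marks dorsal CA1, had ratios of 0.481, 0.576 and 0.645 in SD mice, against 0.568, 0.672 and 0.745 in Sleep mice (-0.21 ± 0.04). Lefty1, a secreted antagonist of Nodal signalling and the strongest fall of this list, had ratios of 2.10, 2.55 and 3.29 in SD mice, against 2.89, 3.43 and 4.35 in Sleep mice (-0.45 ± 0.06, adjusted p = 4.81e-07). The calcineurin subunit gene Ppp3ca (-0.14 ± 0.03), the calcium sensor gene Hpca (-0.11 ± 0.03) and the transcription factor gene Neurod1 (-0.24 ± 0.05) fell by less, and Camk2a itself (-0.20 ± 0.08) and the vesicular transporter gene Slc17a7 (-0.08 ± 0.04) were not called.

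None of the 17 CA3 and CA2 genes was called (median 0.030), and 2 of 16 dentate granule genes rose and 1 fell (median 0.099). Calb1, a calcium buffer of granule and superficial CA1 cells, was the 1 that fell (-0.18 ± 0.04). The summed CPM of the CA1 genes was 1640 to 1960 in SD and 1800 to 2180 in Sleep pS6 libraries, with 10 of 14 SD mice below the lowest Sleep mouse, and 1690 to 1950 in SD and 1660 to 1960 in Sleep Input libraries. Its part in the lower calls was not tested.

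Lmo1, a LIM-only transcriptional cofactor (chr7:109138572-109175207, minus strand), had the smallest p among genes called lower. Its ratios were 1.32, 1.53 and 1.84 in SD mice, against 1.73, 2.05 and 2.79 in Sleep mice (-0.43 ± 0.05, adjusted p = 5.44e-08), and no SD mouse lay above the Sleep median. The change was in the captured RNA, at 130 ± 16.4 CPM in SD and 174 ± 19.3 CPM in Sleep pS6 libraries, against 84.6 ± 7.48 CPM in SD and 84.1 ± 10.1 CPM in Sleep Input libraries. The same held for Efcab6, an EF-hand protein gene (-0.50 ± 0.07; -0.52 ± 0.08 in pS6 and -0.03 ± 0.06 in Input), and for Anln, an actin-binding protein of cytokinesis and myelin (-0.43 ± 0.07; -0.36 ± 0.06 and 0.08 ± 0.06). Dio3, the deiodinase that inactivates thyroid hormone, had ratios of 1.40, 1.86 and 2.20 in SD mice, against 1.67, 2.56 and 3.46 in Sleep mice (-0.47 ± 0.08, adjusted p = 0.000194). C2cd4a (-0.51 ± 0.10) and Bhlha9 (-0.40 ± 0.09) also fell, as did mt-Nd6 (-0.43 ± 0.11), a complex I subunit gene whose exon overlaps mt-Nd5. All 9 mitochondrially encoded genes tested lay below 0 (median -0.21), and mt-Nd6 was the 1 called. Their transcripts were scarce in the capture, with median summed CPM of 410 in SD and 425 in Sleep pS6 libraries. In Input the medians were 9640 in SD and 9470 in Sleep mice. Whether the few captured reads came from pS6-bearing ribosomes or from background was not tested.

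Some calls arose in Input, in whole or in part. Htr1a, the serotonin 1A receptor (chr13:105443639-105448122, plus strand), had ratios of 0.682, 0.781 and 0.883 in SD mice, against 0.845, 1.05 and 1.17 in Sleep mice (-0.40 ± 0.05, adjusted p = 1.34e-07). SD changed it by -0.16 ± 0.04 in pS6 and 0.24 ± 0.04 in Input. Sgk1, a kinase induced by glucocorticoids, was called lower (-0.38 ± 0.07, adjusted p = 0.00219) although it rose with SD in both libraries, by 0.25 ± 0.05 in pS6 and 0.64 ± 0.09 in Input. Its Input level was 171 ± 69.7 CPM in SD and 105 ± 14.7 CPM in Sleep mice, against 110 ± 18.7 CPM in SD and 92.3 ± 8.86 CPM in Sleep pS6 libraries. The loading difference of Sgk1 was -0.66 ± 0.11 in CFC mice and -0.10 ± 0.09 in NoCFC mice, which alone did not pass (adjusted p = 0.812), and the test of the difference between the arms did not pass either (-0.55 ± 0.15, adjusted p = 0.783). Its Input CPM was 149 to 331 in CFC SD and 92.2 to 146 in CFC Sleep mice, and 94.4 to 159 in NoCFC SD and 85.9 to 112 in NoCFC Sleep mice. Adamts2, a procollagen peptidase (-0.43 ± 0.12; 0.07 ± 0.12 in pS6 and 0.50 ± 0.08 in Input), and the lipoxygenase gene Alox12b (-0.45 ± 0.08; -0.13 ± 0.08 and 0.31 ± 0.07) were of the same kind, and Adamts2 was not called without mice 12, 19 and 27 (adjusted p = 0.0764). Cirbp, a cold-inducible RNA-binding protein, fell in both libraries and less in pS6 (-0.21 and -0.38 in pS6 and Input), which gave a higher loading (0.17 ± 0.04). The potassium channel gene Kcna4 was called higher (0.29 ± 0.07) with -0.06 in pS6 and -0.36 in Input, and was not called without mice 12, 19 and 27 (adjusted p = 0.0612).

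Calls in the remaining lists are set beside the shares over all genes tested, of which 1.44% were called higher in loading and 0.83% lower. Of 17 glucocorticoid targets, 2 rose and 1, Sgk1, fell. Cdkn1a, the cell-cycle inhibitor p21, had ratios of 1.21, 1.81 and 2.33 in SD mice, against 0.823, 1.23 and 1.78 in Sleep mice (0.52 ± 0.11, adjusted p = 0.00217), with exons that overlap AC167363.2, and the EGF receptor inhibitor gene Errfi1 rose by 0.18 ± 0.05. Of 22 clock genes, Nfil3, Cry2, Rora and Usp2 were higher and Bhlhe41 was lower, while the core genes Per1 (0.14 ± 0.10), Per2, Arntl and Clock were not called. In the integrated stress response list, Atf4 (0.21 ± 0.05) and Ddit3 (0.23 ± 0.06) were higher, 2 of 26, and without mice 12, 19 and 27 neither passed. Of 28 ER chaperone genes, Dnajb9 fell (-0.27 ± 0.06), although 10 of the list rose with SD in the pS6 libraries and 8 in Input on their own, where 4.6% and 2.04% of all genes tested rose and 3.28% and 1.13% fell. Bag3 was 1 of 20 heat-shock genes to rise (0.49 ± 0.12), and Pmvk, an enzyme gene of cholesterol synthesis, rose by 0.25 ± 0.06.

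In the S6 kinase and mTORC1 list, SD raised 4 of 43 genes and lowered 2 in the pS6 libraries on their own, and raised 3 and lowered 1 in Input. Over all genes tested, 4.6% rose and 3.28% fell in pS6, against 2.04% and 1.13% in Input. None of the 43 genes was called in loading (median -0.0036, range -0.26 to 0.32), although Rragc was called lower without mouse 6, an alternative chosen after seeing the data (-0.13 ± 0.04), and Ddit4 in CFC mice alone (-0.42 ± 0.09). Nor was any of 46 large and 33 small ribosomal protein genes (medians -0.0076 and -0.015) or 45 translation factor genes (-0.018) called. Rps6, which encodes the captured protein, had ratios of 1.03, 1.18 and 1.38 in SD mice, against 1.05, 1.24 and 1.38 in Sleep mice (-0.04 ± 0.04). A count table says nothing of phosphorylation, and no protein was measured here. No gene of the nuclear-encoded oxidative phosphorylation list was called among 42, nor of the synaptic adhesion list among 36.

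Astrocyte genes were not called either, 0 of 23, but all 23 lay above 0, with a median of 0.21 and a range of 0.04 to 0.50. Their summed CPM was above the Sleep median in 13 of 14 SD pS6 libraries, and its part in the results above was not tested. Without mice 12, 19 and 27 the median was 0.18 and again no gene passed. Over all genes 231 were then called higher and 106 lower, with 16 of the activity-regulated transcription factors, 16 effectors, 13 peptide genes and 11 inhibitory-neuron genes among the higher ones, and 2 excitatory-neuron and 5 CA1 genes among the lower ones. Without the 7 mice high in choroid plexus genes, 15 transcription factors, 13 effectors, 5 MAPK feedback inhibitors, 10 peptide genes and 11 inhibitory-neuron genes were called higher, 5 CA1 genes were called lower, and none of the excitatory-neuron genes passed. Of the genes named as called here, Egr2, Dusp10, Penk, Pdyn, Sowahb, Neurod1, Ppp3ca, Hpca, Calb1, Adamts2, Cirbp, Kcna4, Errfi1, Rora, Usp2, Ddit3, Dnajb9, Bag3 and Pmvk then missed the threshold, with adjusted p-values of 0.0541 to 0.294 and unchanged sign. No oligodendrocyte, precursor, microglial, choroid plexus or blood gene was called, and of 22 vascular genes tested Dcn fell, which is also in the CA1 list (-0.31 ± 0.06). The summed CPM of 12 oligodendrocyte precursor genes was 184 to 267 (median 233) in SD and 199 to 232 (median 208) in Sleep pS6 libraries, with 7 of 14 SD mice above the highest Sleep mouse and 3 below the lowest, and its part in the results was not tested. Without the 7 mice high in choroid plexus genes, 1 precursor gene was called higher. In Input the sum was 377 to 506 in SD and 378 to 495 in Sleep mice.

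**Figure D4:**
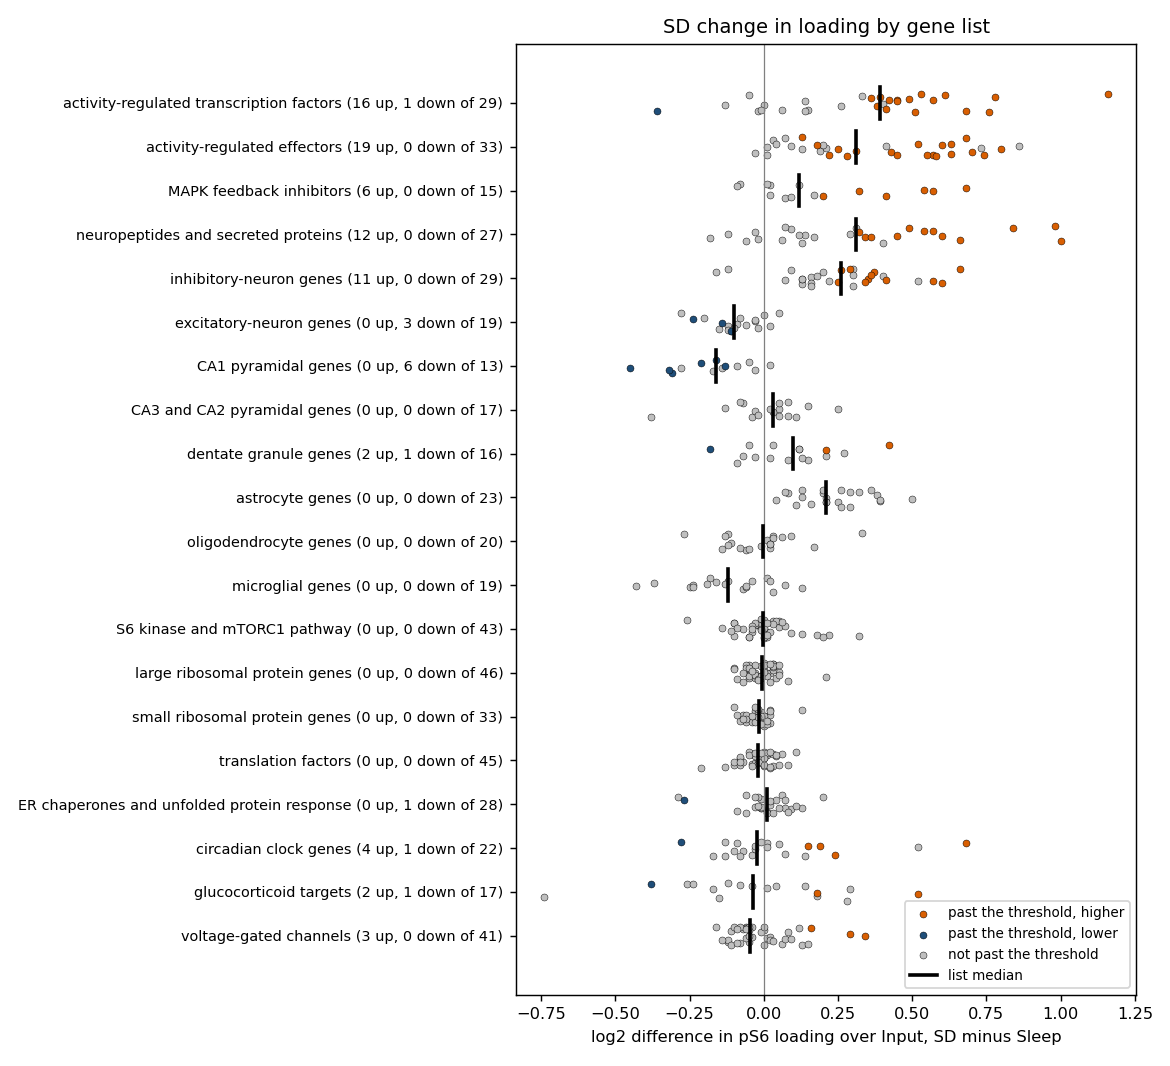
Log2 difference in loading, SD minus Sleep (x axis), of every tested member of 20 gene lists (rows, with the number called in each direction); a point is 1 gene, orange or blue where it passed the threshold, and a black bar is the list median. Medians of the activity-regulated, peptide and inhibitory-neuron lists lie to the right of 0, and that of the CA1 genes to the left. All 23 astrocyte genes also lie to the right of 0, without a call. Ribosomal and translation lists gather around 0 without a call.

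The membrane (pellet) fraction of the same mice gave separate pS6 and Input libraries. There 32 of 17101 genes (0.187%) were more loaded in SD mice and 8 (0.0468%) less, with 7.06% at an unadjusted p under 0.05. Of these, 28 were among the 246 called higher in the cytosolic fraction, which is 87.5% of the membrane list and 11.4% of the cytosolic one, and 6 were among the 142 called lower (75% and 4.23%), with none called in opposite directions. Bdnf (0.76 ± 0.06), Pcsk1 (0.78 ± 0.09), Nptx2 (0.62 ± 0.08), Inhba (0.60 ± 0.10), Sst (0.52 ± 0.05) and Npy (0.54 ± 0.06), all made on membrane-bound ribosomes as secreted proteins, were called in both fractions. Of the activity-regulated transcription factors 6 of 29 were called there, among them Nr4a2 (0.29 ± 0.07), Nr4a3 (0.46 ± 0.07), Junb (0.34 ± 0.07) and Egr1 (0.36 ± 0.07). Fos (0.42 ± 0.13, adjusted p = 0.309), Nr4a1 (0.33 ± 0.08, adjusted p = 0.0895) and Dusp1 (0.26 ± 0.09, adjusted p = 0.516) were not called there. All genes called higher in the cytosolic fraction had a membrane median of 0.15, and 222 of 246 had the same sign, against 9310 of 16305 over all genes with both values. A test of the difference between fractions called 0 of 18174 genes with edgeR, with 967 (5.32%) at an unadjusted p under 0.05, and limma, scaling by the median of ratios and a term for the runs of mouse numbers also called 0, so no gene was shown to respond differently in the 2 fractions.

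**Figure D5:**
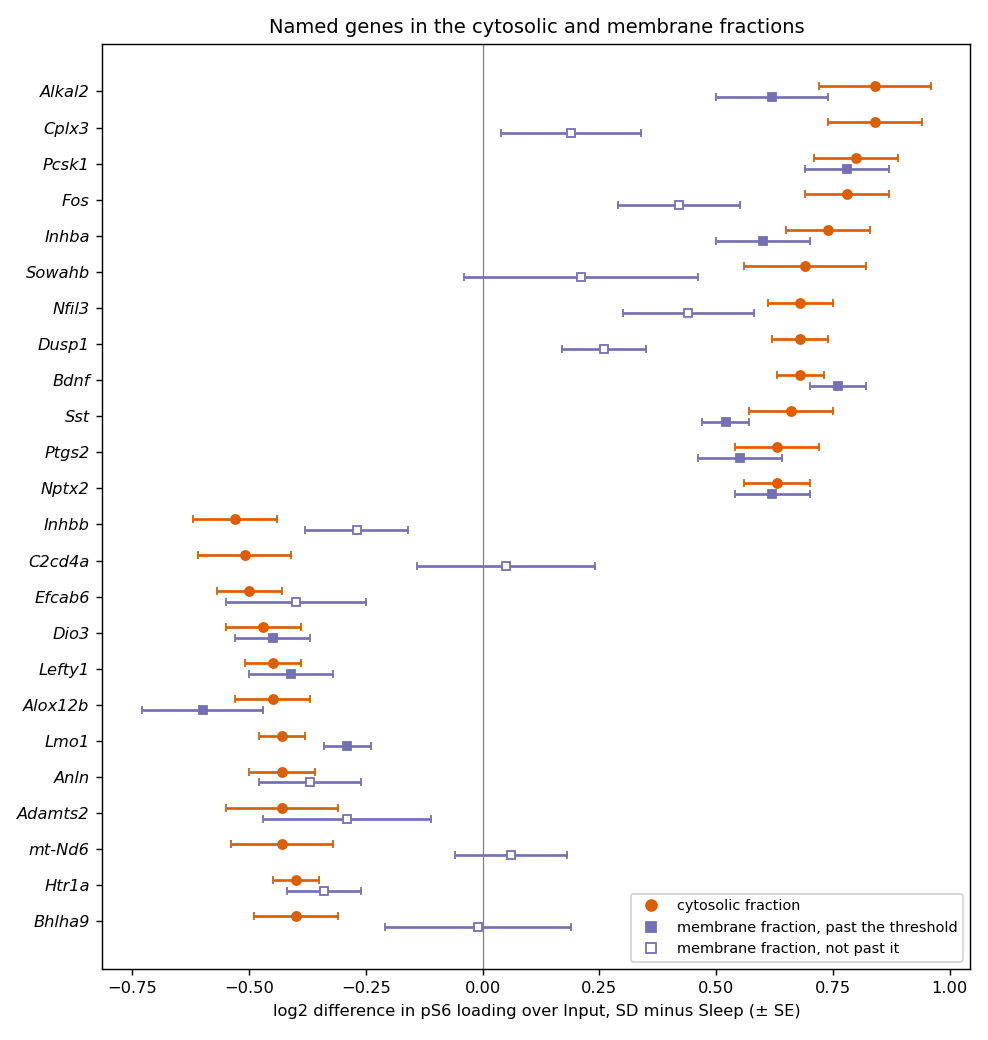
Log2 difference in loading, SD minus Sleep, with its SE (x axis) for the 12 genes named as higher and the 12 as lower (rows), in the cytosolic fraction (orange circles) and the membrane fraction (purple squares, filled where past the threshold). Secreted proteins such as Pcsk1, Bdnf, Nptx2 and Sst have close values in both, whereas C2cd4a, mt-Nd6 and Bhlha9 lie near 0 in the membrane fraction.

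The Camk2a capture from the same cytosolic fraction shares the Input libraries with the comparison above, so its values are set beside it without a test. SD changed Camk2a loading upward in 0 of 16421 genes (edgeR, 933, or 5.68%, at an unadjusted p under 0.05 in either direction) and downward in 5 (0.0304%), namely Sgk1 (-0.63 ± 0.09), Usp2 (-0.18 ± 0.03), Tsc22d3 (-0.27 ± 0.05), Rbm3 (-0.23 ± 0.04) and Inpp5d (-1.04), the last named only as part of this count. Fos had a Camk2a loading difference of 0.23 ± 0.10 and a pS6 loading difference of 0.78 ± 0.09. For Bdnf the values were -0.06 ± 0.05 and 0.68 ± 0.05, for Scg2 0.07 ± 0.04 and 0.54 ± 0.05, and for Sgk1 -0.63 ± 0.09 and -0.38 ± 0.07.

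Within the runs of mouse numbers the named genes kept their direction. Taken in the order 1–11, 12–22 and 23–30, the log2 differences of Fos were 0.82, 0.75 and 0.75, those of Bdnf 0.70, 0.57 and 0.78, of Scg2 0.64, 0.37 and 0.65, of Sst 0.49, 0.62 and 0.92, and of Lmo1 -0.57, -0.40 and -0.29. In the same order, 26, 32 and 108 genes were called higher and 6, 9 and 17 lower. Medians of the activity-regulated transcription factors were 0.36, 0.36 and 0.46, and those of the inhibitory-neuron genes 0.27, 0.20 and 0.35. Both training arms had the same direction for these genes: Fos was at 0.77 in CFC and 0.79 in NoCFC mice, and Bdnf at 0.62 in CFC and 0.73 in NoCFC mice. A test of the difference between the arms called 2 of 17112 genes (0.0117%; 5.55% had an unadjusted p under 0.05), Usp7 and Irf2bp2, neither of which was called in the comparison itself. Usp7, a deubiquitinase, had loadings of 1.43 in CFC SD and 1.58 in CFC Sleep mice, against 1.71 in NoCFC SD and 1.32 in NoCFC Sleep mice (medians of ratios; -0.66 ± 0.12, adjusted p = 0.0336), and both calls were lost with the run as a term or without mouse 6.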

How the data were processed

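Whole-number gene counts of each library were made by the authors and deposited as a single table of 54429 genes. Reads were aligned with STAR 2.6.1a to GRCm38.p6 and counted with featureCounts, with MultiQC 1.6a0 for quality, per the submitters' processing notes; the annotation and the strand setting are not given in the sources used here, so genes with overlapping exons are uncertain. Total counts were 13.4 to 25.4 M per library, and reads carry no molecular identifiers, so they are not independent molecules.

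Cytosolic pS6 and Input libraries were fitted with edgeR 4.0.16 in R 4.3.3 (quasi-likelihood test, TMM scaling, low counts filtered, Benjamini-Hochberg adjustment over all genes tested, threshold 0.05), with a term for each mouse, a capture term and its interaction with SD in each training arm, and the mean of both arms as the contrast. pS6 and Input libraries were also fitted on their own, and the membrane libraries as the cytosolic ones. The pairing rests on the mouse numbers in the labels. Deviations from the group mean had a median correlation of 0.416 between libraries of 1 mouse, over 10100 genes. It was -0.0923 between libraries of other mice of the group, a value that subtracting the group mean by itself pushes below 0. For 26 of 30 pS6 libraries, the closest Input library of the group was of the same mouse. Nothing in the labels says whether mice were handled in separate batches. Ratios are of CPM, and log2 loading uses a prior count of 2. Alternatives used DESeq2 1.42.0 and limma 3.58.1, and the fits were tested on simulated data. Genes named are the 12 largest differences each way among genes past the threshold with an average log2 CPM of at least 3, without predicted genes, plus members of 38 gene lists. The comparison, the genes and the lists were chosen with earlier results of these data known. Gene positions are from GENCODE for GRCm38, matched by symbol, and promoter windows are from RefSeq.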

Additional observations from a re-analysis of the deposited data

Results flagged for a closer look

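Of 200 sets of 7 or 8 mice checked (96 of log2 loading of the named genes and 104 of summed CPM of marker lists), 21 had 1 mouse far from the others of its group. Among the loading sets only that of Anln in NoCFC Sleep mice was flagged, and the rest were marker sums. Chance gives about 1 in 20 for separate sets, but these sets share mice, so that share is only a rough guide. In 10 choroid plexus genes the pS6 sums of mice 7 (NoCFC SD), 22 (CFC SD), 2 (NoCFC Sleep) and 14 (CFC Sleep) were 841, 2860, 1420 and 952 CPM, and their Input sums were 310, 868, 619 and 433 CPM. Mice 29 and 18 (CFC SD) and 23 (NoCFC Sleep) had pS6 sums of 1170, 1140 and 612 CPM and Input sums of 295, 353 and 244 CPM, also above the other mice of their groups apart from mice 22 and 2. Mouse 22 also had pS6 sums of 2220 CPM in oligodendrocyte genes and 647 CPM in vascular genes, both high, and of 1290 CPM in CA3 and CA2 genes, which was low. Oligodendrocyte sums in pS6 were high in mouse 7 (1700 CPM) and mouse 2 (1880 CPM). Astrocyte sums in pS6 were high in mice 27 (NoCFC SD), 19 (CFC SD) and 12 (CFC Sleep), at 2540, 4480 and 3170 CPM. The inhibitory-neuron sum in pS6 of mouse 28 was far above the other NoCFC SD mice, at 2130 CPM, a sum that mouse 21 (CFC SD) also had. In the NoCFC Sleep group, mouse 24 had blood gene sums of 443 CPM in pS6 and 157 CPM in Input and an Anln log2 loading of 0.42, and mouse 4 had a pS6 sum of 629 CPM in mitochondrially encoded genes. The part of these libraries in the results was not tested beyond leaving out mice 12, 19 and 27, the 7 mice high in choroid plexus genes, and mouse 6, each set in turn.

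The effect of SD on loading differed between the training arms in 2 genes by the test of that difference. Irf2bp2, a transcriptional corepressor partner, had a difference between arms (CFC minus NoCFC) of -1.66 on the log2 scale (SE 0.29, adjusted p = 0.0463), with median ratios of 0.687 in CFC SD and 0.857 in CFC Sleep mice, and of 1.36 in NoCFC SD and 0.573 in NoCFC Sleep mice. Usp7 had a difference of -0.66.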

How the results depend on the processing

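Counts of genes more loaded in SD mice (246) and less loaded (142) stayed within 1.5 times under 8 and 9 of the 11 alternatives that kept all or most mice. Without the replicate block, that is with pS6 and Input libraries not paired by mouse, they were 87 and 28, membrane counts (32 and 8) were 17 and 2, and no gene differed between training arms (0, with 466 at an unadjusted p under 0.05); list counts were then 11 higher and 1 lower for transcription factors, 11 for effectors, 7 for peptides, 7 for inhibitory-neuron genes and 1 lower for CA1 genes. With no filter on low counts there were 394 higher in the cytosolic fraction, 132 higher and 26 lower in the membrane fraction, 75 that differed between arms and 105 lower in Input alone (against 181). DESeq2 called 18 lower in the membrane fraction and 5 that differed between arms. Alone, mice 1–11 gave 26 higher and 6 lower, mice 12–22 gave 32 and 9, mice 23–30 gave 108 and 17, CFC mice 107 and 31, and NoCFC mice 66 and 15. Without mice 12, 19 and 27, an alternative chosen after seeing the data, 5 were lower in the membrane fraction, and the 2 genes that differed between arms were lost (0), as they were with a run term (0) and without mouse 6 (0), also chosen after seeing the data. Without the 7 mice high in choroid plexus genes, chosen after seeing the data too, the cytosolic counts were 142 and 65, the membrane counts 20 and 2, and 0 genes differed between arms (719 at an unadjusted p under 0.05). The cause of these changes was not tested. Of the 24 named genes, 19 passed under all 11 whole-set alternatives; without the block Cplx3, Adamts2, mt-Nd6 and Bhlha9 did not pass, nor did Adamts2 without mice 12, 19 and 27, nor Adamts2 and Sowahb without the choroid plexus mice, and mt-Nd6 could not be tested with mitochondrial genes left out. No value changed sign. Genes of few counts, such as Npas4 and Crh, limit precision at this depth.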

Other observations

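The calls among channel, receptor and release genes were all higher. Over all genes tested, 1.44% were called higher. Of 41 voltage-gated channel genes, 3 were called: Kcnip1, a modulator of A-type potassium channels (0.34 ± 0.06), the fast potassium channel gene Kcnc1 (0.16 ± 0.04) and Kcna4, and the first of these alone passed without mice 12, 19 and 27. Among 14 GABA-A receptor genes Gabrd, the extrasynaptic delta subunit, was called (0.28 ± 0.07; adjusted p = 0.0643 by edgeR without those mice), and among 27 glutamate receptor genes Gria4, an AMPA receptor subunit (0.24 ± 0.07; adjusted p = 0.0562 without mouse 6). Of 24 synaptic vesicle genes, Vamp1 (0.16 ± 0.04) and Cplx1 (0.10 ± 0.03) were called. The long noncoding RNAs Dlx6os1 (0.41 ± 0.07) and Sox2ot (0.25 ± 0.06) were 2 of 20, and Hdac9 was 1 of 32 chromatin modifier genes (0.25 ± 0.06; adjusted p = 0.054 without those mice). None of 32 splicing factor genes was called. Without the 7 mice high in choroid plexus genes, Kcna4, Gria4, Vamp1, Cplx1 and Sox2ot did not pass (adjusted p of 0.051 to 0.228). All values are log2 differences in loading ± SE.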
